A study of Danio rerio with 9 samples.

Results

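Müller glia (MG) of injured *mych*-/- retinas were set against MG of uninjured Wt retinas, to see which parts of the reprogramming programme are still found in injured MG that carry a *mych* mutation. The comparison used the 6 RNAseq libraries that the labels give to these groups, of the 9 libraries in the series, and covered 20484 of the 23707 gene IDs counted. In the *mych*-/- 2 dpi group, 3 libraries were made from GFP+ cells sorted 2 days after needle poke injury (2 days post injury, dpi) from retinas homozygous for a frameshift allele of *mych*. The Wt 2 dpi group had the same injury and time in 3 Wt libraries, and the Wt uninjured group had 3 Wt libraries with no injury. All fish were adults that carried the *gfap:GFP* reporter, in which *gfap* sequence drives GFP in MG and in the progenitors that come from them, so neither cell state was separated from the other by the sort. The mutant line carries 1 germline allele, and no library of uninjured *mych*-/- MG was analysed here. Injury and genotype therefore differ together, and their parts in a value cannot be told apart. Each sort pooled many retinas, and the labels do not say whether the libraries of a group came from separate pools, so p-values measure the spread between these libraries, which may be technical.

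The guide RNA that the study lists for this allele is shown because it marks where the mutant group was edited, in exon sequence of *mych*. It is printed 5′ to 3′ as the oligo table gives it, with the 10 bases next to the PAM side in capitals.
*mych* gRNA 1: ggagactgAGGCGGTGTG

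In the zebrafish retina, injury makes MG leave their supporting role, express developmental and pluripotency factors, divide, and form multipotent progenitors that replace lost neurons. Secreted cytokines that act through gp130 receptors, Jak kinases and Stat3 start this response, and the transcription factor Ascl1a and the RNA-binding protein Lin28a carry it on. Myc proteins are transcription factors that bind DNA with Max and are best known for driving ribosome production, nucleotide synthesis and cell division.

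Library totals ranged from 46835977 to 77133615 counts, and single counts are a small part of the error of any gene named here with more than a few CPM. Replicates correlated at 0.958 to 0.978 (Pearson's r of log2(CPM + 1) across genes, which are not independent replicates), and pairs of a *mych*-/- 2 dpi and a Wt uninjured library at 0.855 to 0.913. *mych*-/- replicate 2 was as close to the Wt 2 dpi libraries (0.959 to 0.963) as to *mych*-/- replicates 1 and 3 (0.964 and 0.958), so counts are also given without it where it decides them. Wt 2 dpi replicate 1 was likewise about as close to the *mych*-/- libraries (0.963 to 0.964) as to Wt 2 dpi replicates 2 and 3 (0.967 and 0.965). Levels are in CPM, counts over library sizes scaled by TMM. Some gene IDs carry a human-style symbol, and where a symbol names several IDs the ID is given.

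Injured *mych*-/- MG differed from uninjured Wt MG in 5292 genes, 3340 of them higher and 1952 lower. Genes count as called at an edgeR adjusted p of up to 0.05 with a log2 fold change past 0.5, up or down, and log2 fold changes are given ± SE. Where no group is named, a rise or change is against Wt uninjured MG. Libraries of these groups did not overlap in 9512 genes (46.4%). The calls are 25.8% of all genes tested, 16.3% higher and 9.53% lower, and these shares are the background against which each gene list below is read. At an unadjusted p under 0.05 there were 7599 genes. For Wt 2 dpi against Wt uninjured MG, a comparison that shares the uninjured libraries, the same fit called 8621 genes (42.1%), 4561 higher (22.3%) and 4060 lower (19.8%). Among the lists described here, the highest shares of risers were in cell division, cytosolic ribosomal proteins, ribosome biogenesis and gp130 signalling, and photoreceptor markers led the falls. Where a list below has 0 genes lower, the count of lower genes at an unadjusted p under 0.05 and by DESeq2 was 1 for reprogramming factors and cytosolic ribosomal proteins and 0 for the others. The median log2 fold change over all genes was -0.00, and 63.1% of the calls were higher. Scaled by library size alone, that median was 0.15 and 76.4% of 4986 calls were higher. In bulk samples of sorted cells, fewer cells of a type and less RNA per cell cannot be told apart.

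Where injured mutants differ from injured Wt MG was tested directly. *mych*-/- 2 dpi against Wt 2 dpi called 347 genes (1.69%), 75 higher (0.366%) and 272 lower (1.33%), and 3976 genes had an unadjusted p under 0.05. A call that is missing does not show that the genotypes act alike, so the 95% interval of this difference is used as well. It lay between -1 and 1, within 2-fold of Wt 2 dpi, in 6413 genes (31.3%). No share of all genes is given for libraries that do not overlap between the injured groups. Such separation of single genes is therefore described without a background and is not a test. The count of 347 rested on single libraries. It was 1026 without *mych*-/- replicate 2 and 982 without Wt 2 dpi replicate 1, but 9 and 28 without *mych*-/- replicates 1 and 3, 8 and 53 without Wt 2 dpi replicates 2 and 3, and 168, 164 and 227 without Wt uninjured replicates 1, 2 and 3. Where a call of a single gene between the injured groups is reported, the number of these 9 fits that keep it is therefore given. Many such calls were lost in each fit without *mych*-/- replicate 1 or 3 or Wt 2 dpi replicate 2 or 3, named below as the 4 deciding libraries.

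**Figure D1:**
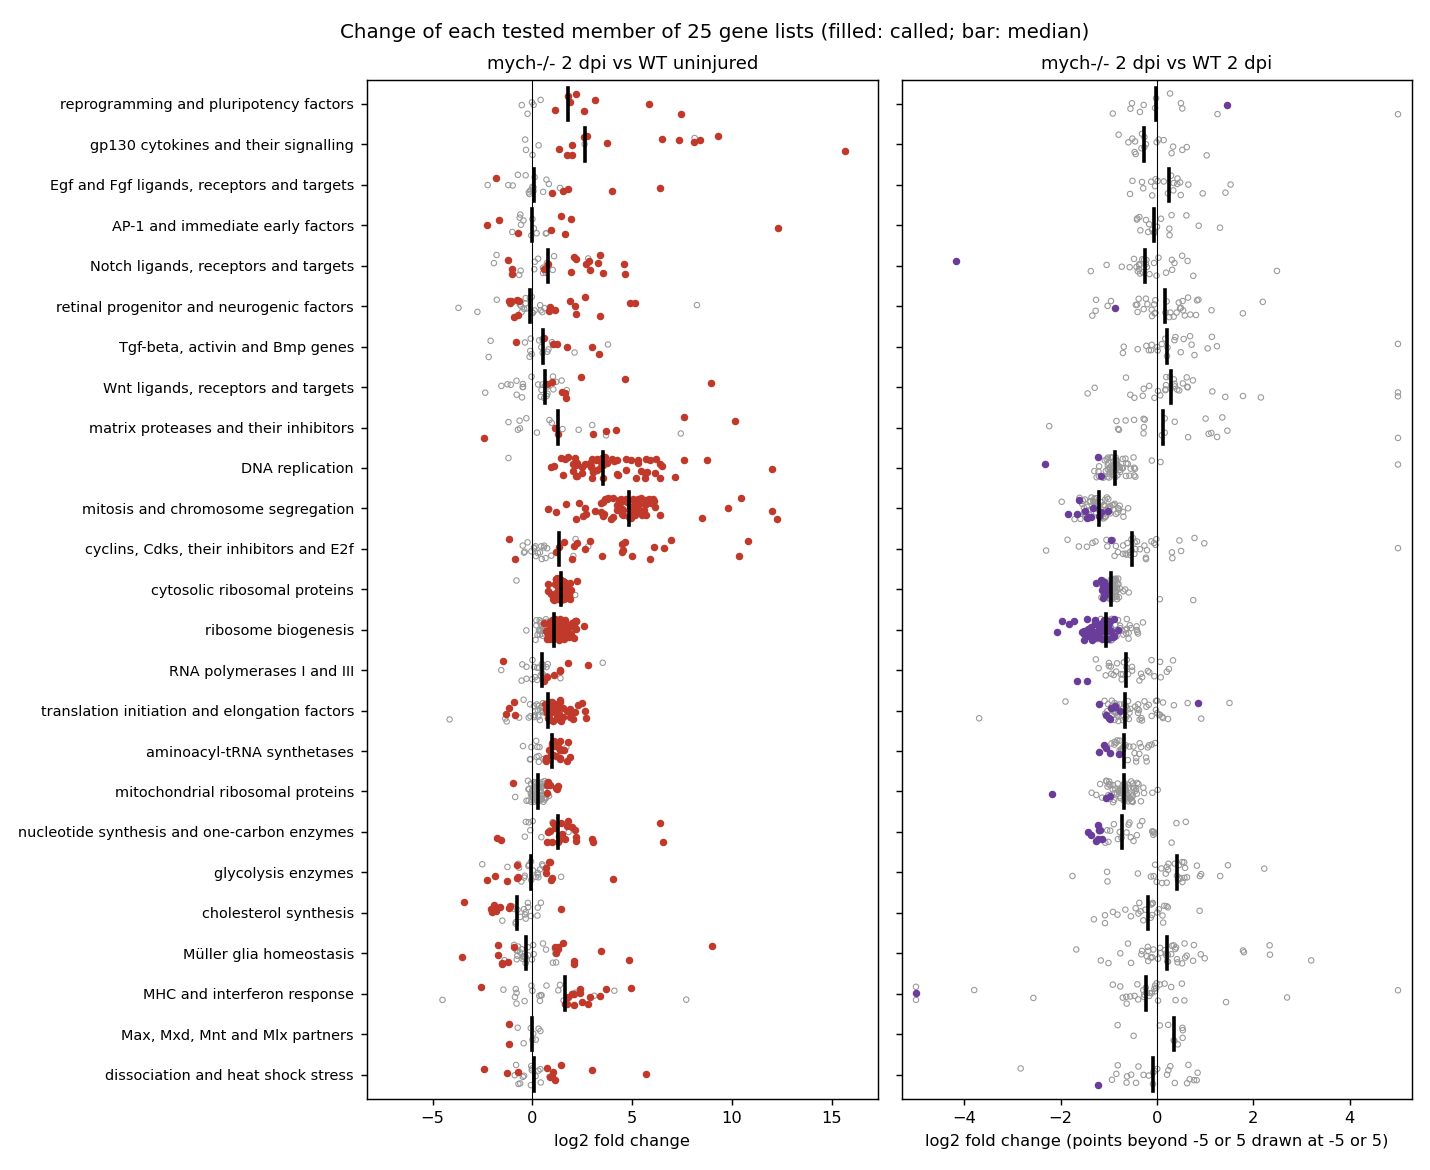
Log2 fold change of every tested member of 25 gene lists in *mych*-/- 2 dpi against Wt uninjured MG (left) and against Wt 2 dpi MG (right). Each point is a gene, filled where called, and the bar is the median of the list. The medians of DNA replication (3.52) and mitosis (4.82) genes lie far to the right in the left panel, and the medians of the protein synthesis and cell division lists lie left of 0 in the right panel.

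Reprogramming factors were high in injured mutants. Of 13 tested genes on this list, 8 rose and 0 fell against Wt uninjured MG (61.5% called, median log2 fold change 1.76). In Wt 2 dpi MG 8 rose and 4 fell. The 8 risers in mutants include the transcript of the mutated gene *mych* itself and *MYC* ENSDARG00000007241, both described below. *ascl1a*, the proneural factor that MG need for regeneration, stood at 211, 394 and 182 CPM in *mych*-/- 2 dpi, 386, 608 and 492 CPM in Wt 2 dpi and 3.73, 4.50 and 5.49 CPM in Wt uninjured libraries. All mutant libraries were far above all uninjured ones, and only *mych*-/- replicate 2 reached the range of the injured Wt libraries. Its log2 fold change against Wt uninjured MG was 5.84 ± 0.36 (SE, adjusted p 1.13e-06 by edgeR), and against Wt 2 dpi MG it was -0.92 (95% interval -1.56 to -0.28, adjusted p 0.122 by edgeR). *LIN28A* (ENSDARG00000016999), which blocks *let-7* microRNA maturation, had 131, 138 and 133 CPM in *mych*-/- 2 dpi, 107, 105 and 122 CPM in Wt 2 dpi and 1.29, 0.238 and 0.702 CPM in Wt uninjured libraries. All 3 mutant libraries lay above all other libraries. The log2 fold change was 7.46 ± 0.46 (SE, adjusted p 1.27e-06 by edgeR) against Wt uninjured and 0.27 (95% interval -0.47 to 1.01, adjusted p 0.739 by edgeR) against Wt 2 dpi MG. *SOX2*, a stem cell factor that quiescent MG also express, was at 347, 468 and 289.5 CPM in *mych*-/- 2 dpi, 395, 600.3 and 417 CPM in Wt 2 dpi and 91.6, 92.8 and 141 CPM in Wt uninjured libraries. It rose by 1.76 ± 0.26 (SE, adjusted p 5.07e-04 by edgeR), and its interval against Wt 2 dpi MG, -0.91 to 0.20, lay within 2-fold. *STAT3*, the transcription factor at the end of the gp130 cascade, had 185, 131 and 179 CPM in *mych*-/- 2 dpi, 147, 117 and 81.5 CPM in Wt 2 dpi and 29.0, 24.1 and 30.5 CPM in Wt uninjured libraries. The mutant and uninjured libraries did not overlap, with a log2 fold change of 2.57 ± 0.24 (SE, adjusted p 2.29e-05 by edgeR). Between the injured groups 1 gene of the list was called (7.69%, beside 1.69% of all genes). *INSM1* (ENSDARG00000091756), a zinc finger repressor and neuroendocrine factor that was chosen for mention after its values were seen, had 22.1, 17.2 and 17.5 CPM in *mych*-/- 2 dpi, 7.79, 6.34 and 6.68 CPM in Wt 2 dpi and 12.9, 9.52 and 20.2 CPM in Wt uninjured libraries. It was not called against Wt uninjured MG, at 0.41 ± 0.30 (SE, adjusted p 0.347 by edgeR). It was higher than in Wt 2 dpi MG by 1.45 (95% interval 0.79 to 2.11, adjusted p 0.0417 by edgeR), a call kept in 4 of the 9 fits (adjusted p 0.0317 to 0.217 by edgeR) and lost without the 4 deciding libraries or Wt uninjured replicate 1.

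The *mych* transcript itself stood at 145, 197 and 158 CPM in *mych*-/- 2 dpi, 180.4, 233 and 319 CPM in Wt 2 dpi and 19.95, 11.04 and 25.9 CPM in Wt uninjured libraries, and its libraries did not overlap between mutant and uninjured MG. The log2 fold change was 3.13 ± 0.32 (SE, adjusted p 3.91e-05 by edgeR) against Wt uninjured and -0.55 (95% interval -1.20 to 0.10, adjusted p 0.335 by edgeR) against Wt 2 dpi MG. This level does not check the genotype, because a frameshift need not remove the transcript. Among the other Myc family genes, *MYCL* (ENSDARG00000034956) had 202, 152 and 137 CPM in *mych*-/- 2 dpi, 115, 87.6 and 119 CPM in Wt 2 dpi and 54.6, 47.6 and 53.8 CPM in Wt uninjured libraries. All mutant libraries were above all Wt libraries of either kind, with a log2 fold change of 1.65 ± 0.20 (SE, adjusted p 1.38e-04 by edgeR) against Wt uninjured and 0.61 (95% interval 0.18 to 1.04, adjusted p 0.127 by edgeR) against Wt 2 dpi MG. *MYC* ENSDARG00000007241 was called higher at 1.14 ± 0.36 (SE, adjusted p 0.0360 by edgeR), a call kept in 6 of the 9 fits (adjusted p 0.0165 to 0.141 by edgeR). It was lost without *mych*-/- replicate 2 (0.83) or Wt uninjured replicate 2 (0.92) or 3 (1.29). *MYC* ENSDARG00000045695, *MYCN* and *mycla* were not called, at 0.06, 0.09 and 0.19. Of the 10 tested partners Max, Mxd, Mnt and Mlx, 0 rose and 2 fell (20% called, under the background of 25.8%). In Wt 2 dpi MG 1 rose and 4 fell, where 42.1% of all genes were called. The 2 calls in mutants were 1 without Wt uninjured replicate 1. *MAX*, the obligate partner of Myc, stood at 121, 119.7 and 119.6 CPM in *mych*-/- 2 dpi, 157, 155 and 191 CPM in Wt 2 dpi and 119.8, 118 and 122 CPM in Wt uninjured libraries. The mutant libraries overlapped the uninjured ones and lay below all injured Wt libraries, at -0.48 (95% interval -0.83 to -0.14, adjusted p 0.129 by edgeR) against Wt 2 dpi MG. *MXI1* and *MXD4*, which oppose Myc on the same DNA sites, were lower, with log2 fold changes of -1.17 ± 0.20 (SE, adjusted p 0.00114 by edgeR) and -1.15 ± 0.27 (SE, adjusted p 0.00759 by edgeR). The *MXD4* call was lost without Wt uninjured replicate 1 (adjusted p 0.0503 by edgeR).

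Genes of gp130 signalling had the highest share called among the signalling lists. Of 19 tested genes, 13 rose and 0 fell (68.4% called, median 2.62), against 15 and 1 in Wt 2 dpi MG. Between the injured groups edgeR and DESeq2 both called 0 of the 19, where edgeR called 1.69% of all genes. At an unadjusted p under 0.05 there were 2 higher and 0 lower. Within 2-fold of Wt 2 dpi MG lay 6 of the 19 (31.6%, close to the 31.3% of all genes). The median change between the injured groups was -0.26, or -0.31 to -0.07 when 1 library was left out. *clcf1*, which encodes a secreted gp130 cytokine, had 98.7, 108 and 108 CPM in *mych*-/- 2 dpi and 121, 129 and 119 CPM in Wt 2 dpi libraries, against 0 in every Wt uninjured library. It was at least 1467-fold higher in mutants than a floor of 3 counts in an uninjured library, and its interval against Wt 2 dpi MG, -0.60 to 0.14, lay within 2-fold. *crlf1a*, whose product is secreted together with Clcf1, had 635, 808 and 712 CPM in *mych*-/- 2 dpi, 828, 886 and 979.6 CPM in Wt 2 dpi and 4.08, 3.57 and 5.38 CPM in Wt uninjured libraries. The log2 fold change was 7.37 ± 0.27 (SE, adjusted p 4.66e-08 by edgeR). Each mutant library was below each injured Wt library, with an interval within 2-fold, -0.76 to 0.12. *il11a*, another cytokine of the family, had 6.57, 10.5 and 2.93 CPM in *mych*-/- 2 dpi, 5.07, 11.7 and 10.4 CPM in Wt 2 dpi and 0.443, 0 and 1.04 CPM in Wt uninjured libraries. Its rise was 3.72 ± 0.96 (SE, adjusted p 0.0140 by edgeR). On the receptor side *lifrb* had 26.1, 28.8 and 15.12 CPM in *mych*-/- 2 dpi, 29.4, 27.1 and 27.6 CPM in Wt 2 dpi and 0, 0.238 and 0 CPM in Wt uninjured libraries. It rose by 8.41 ± 0.83 (SE, adjusted p 3.52e-05 by edgeR). The leptin ligand gene *lepb* and its receptor *lepr*, both chosen after their values were seen, rose by 8.11 ± 0.76 (SE, adjusted p 2.47e-05 by edgeR) and 6.50 ± 0.61 (SE, adjusted p 2.44e-05 by edgeR). *il6st*, the gp130 subunit that these receptors share, had 198, 199 and 190.1 CPM in *mych*-/- 2 dpi, 206, 228 and 156 CPM in Wt 2 dpi and 46.3, 49.3 and 80.8 CPM in Wt uninjured libraries. This gene too was chosen after its values were seen, and its log2 fold change against Wt 2 dpi MG was -0.01 (95% interval -0.51 to 0.50, adjusted p 0.992 by edgeR).

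**Figure D2:**
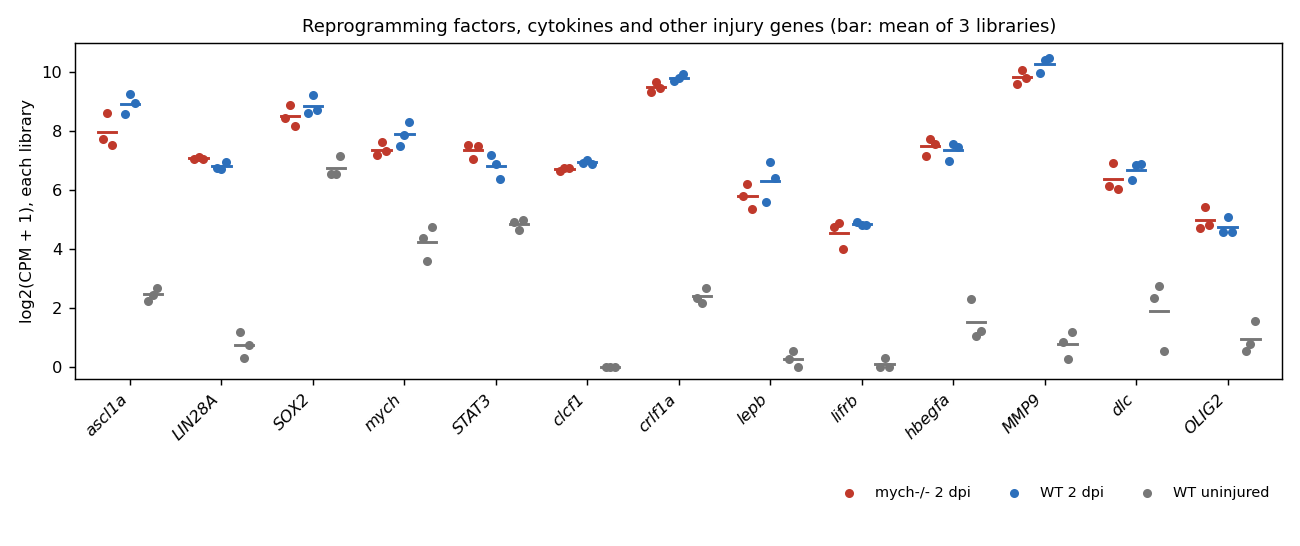
log2(CPM + 1) of 13 injury genes in each *mych*-/- 2 dpi (red), Wt 2 dpi (blue) and Wt uninjured (grey) library, with a bar at the mean of 3 libraries. Every red point lies above every grey point of its gene, and *clcf1* is at 0 in all 3 uninjured libraries.

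Growth factor and immediate early genes gave a mixed picture. Of 22 tested Egf and Fgf genes, 5 rose and 1 fell (27.3%, close to the background), with 3 risers without *mych*-/- replicate 1 or Wt uninjured replicate 1 or 2. *hbegfa*, which encodes a membrane-bound Egf receptor ligand that starts MG reprogramming in fish, had 141, 213 and 188 CPM in *mych*-/- 2 dpi, 127, 189 and 176 CPM in Wt 2 dpi and 3.95, 1.07 and 1.36 CPM in Wt uninjured libraries. The injured groups overlapped and both stood far above uninjured MG, with changes of 6.40 ± 0.49 (SE, adjusted p 6.15e-06 by edgeR) against Wt uninjured and 0.14 (95% interval -0.70 to 0.98, adjusted p 0.903 by edgeR) against Wt 2 dpi MG. *EGFR*, its receptor, was not called at 0.06 ± 0.35 (SE, adjusted p 0.934 by edgeR). *ERBB2*, a receptor that pairs with Egfr, rose by 1.55 ± 0.38 (SE, adjusted p 0.0112 by edgeR), and *etv5b*, a target of Fgf signalling, fell, with a change of -1.83 ± 0.26 (SE, adjusted p 3.77e-04 by edgeR). Among 19 tested AP-1 and immediate early factors, 5 rose and 3 fell (42.1%, median 0.00). The 5 risers include *MYCL* (ENSDARG00000034956), the Myc family gene described above, which is also on this list. Within 2-fold of Wt 2 dpi MG lay 12 of the 19 (63.2%, beside 31.3% of all genes). *fosl1b* had 9.68, 11.5 and 9.22 CPM in *mych*-/- 2 dpi and 8.55, 10.5 and 21.5 CPM in Wt 2 dpi libraries and 0 in every Wt uninjured library, so it was at least 142-fold higher in mutants. *FOSL1*, the other Fra-1 gene, rose by 1.91 ± 0.43 (SE, adjusted p 0.00723 by edgeR), while both *JUNB* genes were not called (0.71 for ENSDARG00000074378 and 0.21 for ENSDARG00000104773). The immediate early genes *NR4A1* and *fosaa*, which dissociation also induces in many tissues, were lower, at -2.26 ± 0.30 (SE, adjusted p 2.66e-04 by edgeR) and -1.65 ± 0.32 (SE, adjusted p 0.00274 by edgeR).

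Notch genes and progenitor factors also changed. Of 30 tested Notch genes, 13 rose and 3 fell (53.3%, median 0.76), against 17 and 4 in Wt 2 dpi MG. The 3 falls were 1 without *mych*-/- replicate 1 or Wt uninjured replicate 2 or 3. The ligand gene *dlc* had 69.1, 121 and 65.1 CPM in *mych*-/- 2 dpi, 79.5, 115 and 118 CPM in Wt 2 dpi and 4.13, 5.73 and 0.479 CPM in Wt uninjured libraries. Its rise was 4.64 ± 0.67 (SE, adjusted p 4.71e-04 by edgeR). The ligand gene *dlb* rose by 4.58 ± 0.96 (SE, adjusted p 0.00438 by edgeR), and *dll4*, the ligand best known from blood vessels, fell to 6.71, 10.5 and 8.32 CPM in *mych*-/- 2 dpi libraries, against 21.4, 19.5 and 19.7 CPM in Wt uninjured libraries (-1.25 on the log2 scale). The Notch target *her4.1* stood at 58.7, 64.9 and 54.9 CPM in *mych*-/- 2 dpi, 41.6, 51.9 and 116 CPM in Wt 2 dpi and 2.69, 6.99 and 7.501 CPM in Wt uninjured libraries. The log2 fold change was 3.38 ± 0.45 (SE, adjusted p 2.68e-04 by edgeR). Its neighbour *her4.4* was higher by 3.55 ± 0.35 (SE, adjusted p 3.32e-05 by edgeR) against Wt uninjured MG and stood at -1.04 (95% interval -1.74 to -0.35, adjusted p 0.11 by edgeR) against Wt 2 dpi MG, which did not pass the test. The *her4* genes are near-identical copies, so how reads were divided among them is uncertain. The receptor gene *NOTCH3* was not called at 0.54 ± 0.27 (SE, adjusted p 0.171 by edgeR). In Wt 2 dpi MG it was called higher than in uninjured MG, at 0.74 ± 0.27 (SE, adjusted p 0.0422 by edgeR). Its interval between the injured groups, -0.79 to 0.37, lay within 2-fold.

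Of 39 tested retinal progenitor and neurogenic factors, 10 rose and 8 fell (46.2%). The 8 falls were 5, 3 and 5 without *mych*-/- replicates 1, 2 and 3, 3, 3 and 6 without Wt uninjured replicates 1, 2 and 3, 7 to 10 without a Wt 2 dpi library, 3 when scaled by library size alone and 12 by DESeq2. The rises were large in a pair of them. *OLIG2*, a factor of cycling neurogenic progenitors, had 25.5, 41.7 and 27.2 CPM in *mych*-/- 2 dpi, 22.8, 33.3 and 23.1 CPM in Wt 2 dpi and 0.461, 0.714 and 1.96 CPM in Wt uninjured libraries. Its rise was 4.89 ± 0.50 (SE, adjusted p 4.21e-05 by edgeR). *FOXN4*, which primes progenitors for amacrine and horizontal fates, had 31.4, 44.2 and 32.3 CPM in *mych*-/- 2 dpi, 52.92, 89.9 and 66.3 CPM in Wt 2 dpi and 0.627, 0.547 and 1.79 CPM in Wt uninjured libraries. It was higher by 5.16 ± 0.45 (SE, adjusted p 1.39e-05 by edgeR). *FOXN4* stood lower in every mutant library than in every injured Wt library, at -0.95 (95% interval -1.76 to -0.14, adjusted p 0.188 by edgeR), which did not pass the test. The photoreceptor and bipolar factor *NEUROD4* and the eye field homeobox gene *rx2*, which photoreceptors also use, were lower, at -1.13 ± 0.27 (SE, adjusted p 0.00980 by edgeR) and -1.18 ± 0.26 (SE, adjusted p 0.00579 by edgeR), beside the photoreceptor markers described below. *atoh7* and *neurog1*, which start ganglion cell formation and neurogenesis, were under 2 CPM in every library and were not called.

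The Tgf-beta, Wnt and protease lists each held a few strong risers. Of 24 tested Tgf-beta, activin and Bmp genes, 6 rose and 1 fell (29.2%). That count was 4 without *mych*-/- replicate 1 or 2 and 3 without Wt uninjured replicate 2. *TGFB2*, a secreted ligand, had 49.6, 42.4 and 47.7 CPM in *mych*-/- 2 dpi, 39.5, 50.5 and 30.1 CPM in Wt 2 dpi and 4.02, 5.28 and 8.33 CPM in Wt uninjured libraries. It was higher by 2.98 ± 0.30 (SE, adjusted p 3.35e-05 by edgeR). *TGIF1*, a corepressor of Smad signalling, rose by 1.72 ± 0.22 (SE, adjusted p 1.67e-04 by edgeR), and *TGFB3*, a ligand linked to MG quiescence in fish, was not called at -0.08 ± 0.32 (SE, adjusted p 0.891 by edgeR). In Wt 2 dpi MG *TGFB3* was called lower than in uninjured MG, at -0.86 ± 0.32 (SE, adjusted p 0.0491 by edgeR). Between the injured groups it stood at 0.78 (95% interval 0.08 to 1.48, adjusted p 0.215 by edgeR). Of 33 tested Wnt genes, 8 rose and 0 fell (24.2%, near the background). *dkk1a*, a secreted Wnt inhibitor, had 23.5, 29.3 and 33.4 CPM in *mych*-/- 2 dpi, 27.02, 22.5 and 39.9 CPM in Wt 2 dpi and 0.166, 0 and 0 CPM in Wt uninjured libraries. The rise was 8.94 ± 0.75 (SE, adjusted p 1.03e-05 by edgeR). Of 22 tested matrix proteases and inhibitors, 7 rose and 1 fell (36.4%, median 1.26). *MMP9*, a secreted gelatinase, had 769, 1080.0 and 889 CPM in *mych*-/- 2 dpi, 1009.8, 1373 and 1423 CPM in Wt 2 dpi and 0.794, 0.214 and 1.31 CPM in Wt uninjured libraries, the largest rise on the list. Its log2 fold change was 10.16 ± 0.57 (SE, adjusted p 8.88e-07 by edgeR) against Wt uninjured and -0.47 (95% interval -1.31 to 0.36, adjusted p 0.546 by edgeR) against Wt 2 dpi MG. The protease inhibitor *TIMP2* ENSDARG00000075261 had 91.0, 59.0 and 75.4 CPM in *mych*-/- 2 dpi, 34.0, 37.4 and 31.8 CPM in Wt 2 dpi and 4.24, 2.57 and 5.52 CPM in Wt uninjured libraries. Every mutant library was above every injured Wt library, but the difference between them, 1.13 (95% interval 0.55 to 1.71, adjusted p 0.0571 by edgeR), missed the threshold.

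Cell division genes rose almost without exception. Of 62 tested DNA replication genes 61 rose and 0 fell (98.4% called, median 3.52), and of 71 mitosis genes 70 rose and 0 fell (98.6%, median 4.82, or 4.76 with genes at the floor set to their bound). The same lists rose by medians of 4.41 and 5.92 in Wt 2 dpi MG. *MCM5*, a subunit of the replicative helicase, had 83.0, 155 and 128 CPM in *mych*-/- 2 dpi, 183, 253 and 260.2 CPM in Wt 2 dpi and 2.23, 1.97 and 5.09 CPM in Wt uninjured libraries. It rose by 5.29 ± 0.41 (SE, adjusted p 6.64e-06 by edgeR). *PCNA*, the sliding clamp of DNA polymerase, had 233, 521 and 273 CPM in *mych*-/- 2 dpi, 495, 783 and 865 CPM in Wt 2 dpi and 34.6, 32.0 and 31.8 CPM in Wt uninjured libraries. Its rise was 3.38 ± 0.33 (SE, adjusted p 2.71e-05 by edgeR). The highest mutant library was above the lowest injured Wt library in *PCNA* and below it in *MCM5*. *mki67*, the common marker of cycling cells, had 143, 204 and 141 CPM in *mych*-/- 2 dpi, 377, 471 and 376 CPM in Wt 2 dpi and 3.82, 5.30 and 6.59 CPM in Wt uninjured libraries. It rose by 4.96 ± 0.28 (SE, adjusted p 6.27e-07 by edgeR), and was lower than in Wt 2 dpi MG at -1.33 (95% interval -1.84 to -0.81, adjusted p 0.0253 by edgeR), a call kept in 5 of the 9 fits (adjusted p 0.0207 to 0.179 by edgeR). *CCNB1*, the mitotic cyclin, stood at 26.2, 38.2 and 25.7 CPM in *mych*-/- 2 dpi, 86.2, 113 and 86.7 CPM in Wt 2 dpi and 0.461, 0.381 and 0.862 CPM in Wt uninjured libraries, and was lower than in Wt 2 dpi MG at -1.67 (95% interval -2.27 to -1.07, adjusted p 0.0195 by edgeR), kept in 5 of the 9 fits (adjusted p 0.0137 to 0.153 by edgeR). The groups did not overlap in *mki67* and *CCNB1*, with the mutants in the middle, and both calls against Wt 2 dpi MG were lost without each of the 4 deciding libraries.

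The distance of the mutants from injured Wt MG had one direction in these lists. Log2 fold changes against Wt 2 dpi MG were negative in 60 of 62 replication genes and 71 of 71 mitosis genes, beside 9815 of all 20484 genes tested, with medians of -0.88 and -1.21 (-1.15 to -0.70 and -1.46 to -1.05 over the fits that each left out 1 library). Called genes numbered 3 (4.84%) and 11 (15.5%), all lower, beside 1.33% of all genes lower. Both counts were 0 without any one of the 4 deciding libraries, but 23 and 30 without *mych*-/- replicate 2 and 14 and 22 without Wt 2 dpi replicate 1. Without Wt uninjured replicate 1, 2 or 3 they were 1, 1 and 3 for replication and 7, 6 and 12 for mitosis. By DESeq2 they were 17 and 29. With a term for the level of bipolar, amacrine, horizontal and ganglion cell markers in each library (the inner neuron term), both were 0, with medians of -0.42 and -0.72. Summed over the replication list, levels were 2521, 4540 and 2897 CPM in *mych*-/- 2 dpi, 4918, 7126 and 6681 CPM in Wt 2 dpi and 378.2, 363.8 and 359.2 CPM in Wt uninjured libraries. *mych*-/- replicate 2 was the highest of the mutants and came near the lowest injured Wt library. *RRM2*, the small subunit of ribonucleotide reductase, was chosen after its values were seen to show that gene copies can differ. The copy ENSDARG00000020711 had 85.0, 62.5 and 51.9 CPM in *mych*-/- 2 dpi, 253, 357 and 395 CPM in Wt 2 dpi and 1.61, 1.31 and 3.46 CPM in Wt uninjured libraries. The copy ENSDARG00000078069 had 110.2, 328 and 117 CPM in *mych*-/- 2 dpi, 140.1, 227 and 161 CPM in Wt 2 dpi and 3.93, 1.76 and 2.17 CPM in Wt uninjured libraries. Against Wt 2 dpi MG the first was lower, at -2.33 (95% interval -3.08 to -1.59, adjusted p 0.0140 by edgeR), a call kept in 5 of the 9 fits (adjusted p 0.00411 to 0.0761 by edgeR), and the second stood at 0.07 (95% interval -0.84 to 0.98, adjusted p 0.956 by edgeR). Reads shared between such copies make the split uncertain.

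Of 43 tested cyclins, Cdks, inhibitors and E2f factors, 20 rose and 2 fell (51.2%, median 1.35). *CCND1*, the cyclin that links growth signals to entry into the cycle, had 308, 359 and 375 CPM in *mych*-/- 2 dpi, 535, 587 and 408 CPM in Wt 2 dpi and 11.6, 15.3 and 15.14 CPM in Wt uninjured libraries. The log2 fold changes were 4.63 ± 0.23 (SE, adjusted p 2.94e-07 by edgeR) against Wt uninjured and -0.55 (95% interval -0.99 to -0.12, adjusted p 0.164 by edgeR) against Wt 2 dpi MG. *CCNE1*, the cyclin of S phase entry, rose by 6.58 ± 0.72 (SE, adjusted p 7.02e-05 by edgeR). *CDKN1B* (ENSDARG00000029018), the Cdk inhibitor p27, fell to 20.3, 15.9 and 21.4 CPM in *mych*-/- 2 dpi libraries, against 13.6, 10.9 and 9.06 CPM in Wt 2 dpi and 42.9, 47.6 and 38.3 CPM in Wt uninjured libraries. The change was -1.16 ± 0.23 (SE, adjusted p 0.00267 by edgeR) from uninjured MG. All groups were separate, with the mutants between the others. *cdkn1a*, the Cdk inhibitor p21, rose instead, by 2.62 ± 0.53 (SE, adjusted p 0.00365 by edgeR).

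**Figure D3:**
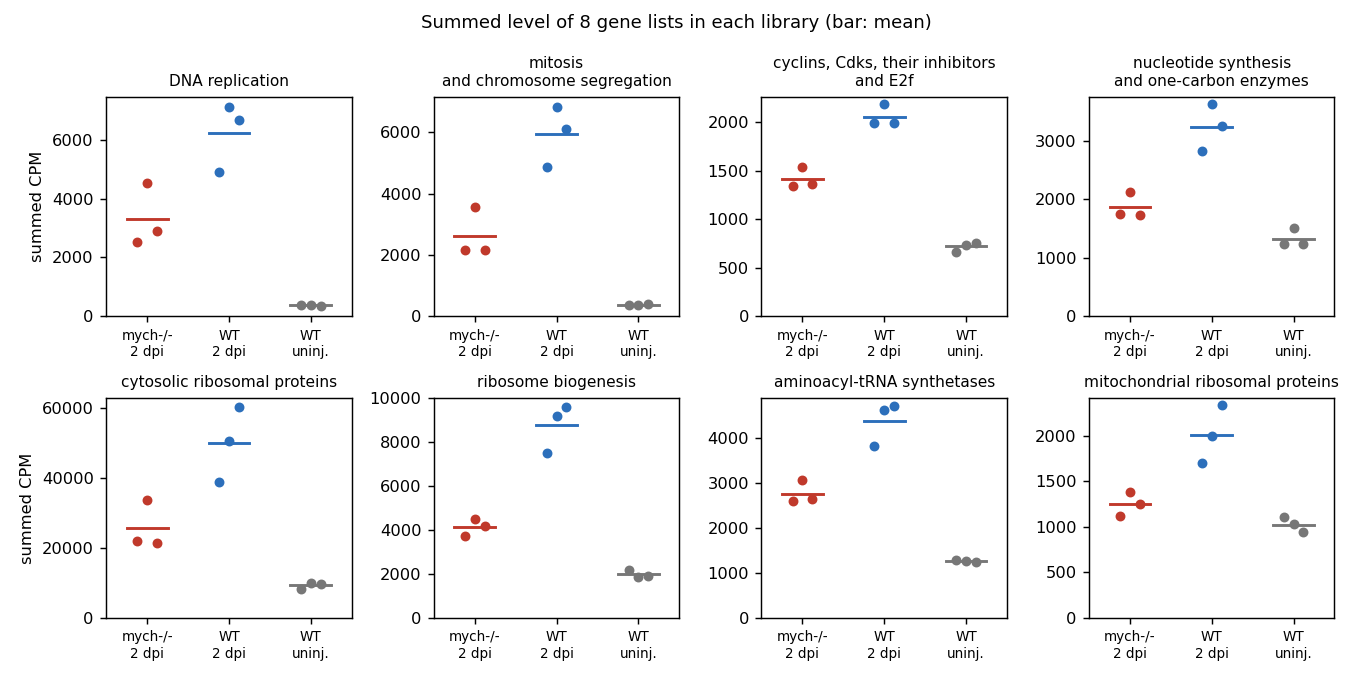
Summed CPM of the members of 8 gene lists in each *mych*-/- 2 dpi (red), Wt 2 dpi (blue) and Wt uninjured (grey) library, with a bar at the mean of 3 libraries. For ribosome biogenesis the mutants lie at 3727 to 4514 CPM, between Wt 2 dpi libraries at 7489 to 9616 CPM and Wt uninjured libraries at 1866 to 2194 CPM.

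Genes of ribosomes and their assembly rose, and those of ribosome biogenesis stood between uninjured and injured Wt MG. Of 82 tested cytosolic ribosomal protein genes 80 rose and 0 fell (97.6%, median 1.44), and of 96 ribosome biogenesis genes 72 rose and 0 fell (75%, median 1.11). In Wt 2 dpi MG the medians were 2.44 and 2.12. The ribosomal protein list summed to 21927, 33580 and 21338 CPM in *mych*-/- 2 dpi, 38862, 50558 and 60226 CPM in Wt 2 dpi and 8333, 9883 and 9784 CPM in Wt uninjured libraries, and the 3 groups did not overlap. *RPS2*, of the small subunit, had 1122, 1655 and 992 CPM in *mych*-/- 2 dpi, 1895, 2367 and 2682 CPM in Wt 2 dpi and 285, 368 and 334 CPM in Wt uninjured libraries. It rose by 1.93 ± 0.25 (SE, adjusted p 2.03e-04 by edgeR) and stood at -0.88 (95% interval -1.41 to -0.35, adjusted p 0.0860 by edgeR) against Wt 2 dpi MG, which did not pass the test. Of the 82 genes 80 had a negative change against Wt 2 dpi MG and 14 were called lower (17.1%), 77 and 67 without *mych*-/- replicate 2 or Wt 2 dpi replicate 1 and 0 or 1 without any other library, with a median of -0.95 (-1.21 to -0.78). *NOP56*, a core protein of box C/D particles that methylate ribosomal RNA, had 115, 147 and 123 CPM in *mych*-/- 2 dpi, 214, 277 and 316 CPM in Wt 2 dpi and 54.0, 39.0 and 46.7 CPM in Wt uninjured libraries. *SNU13* (ENSDARG00000023299), which binds the RNA of the same particles, had 17.8, 19.4 and 17.1 CPM in *mych*-/- 2 dpi, 50.3, 78.4 and 82.9 CPM in Wt 2 dpi and 4.39, 3.64 and 3.83 CPM in Wt uninjured libraries. The mutant libraries of both lay between those of the Wt groups, with no overlap. Against Wt 2 dpi MG *NOP56* was lower, at -1.07 (95% interval -1.51 to -0.62, adjusted p 0.0347 by edgeR), kept in 5 of the 9 fits (adjusted p 0.0218 to 0.205 by edgeR) and lost without each of the 4 deciding libraries. *SNU13* was lower too, at -1.96 (95% interval -2.46 to -1.47, adjusted p 0.00506 by edgeR), kept in 8 of the 9 fits (adjusted p 0.00309 to 0.0519 by edgeR) and lost without *mych*-/- replicate 1. Of the whole biogenesis list 96 of 96 had a negative change against Wt 2 dpi MG and 48 were called lower (50%, beside 1.33% of all genes), with a median of -1.05 (-1.17 to -0.98 with 1 library left out). The 48 calls were 1 and 4 without *mych*-/- replicates 1 and 3, 2 and 9 without Wt 2 dpi replicates 2 and 3, and 34 to 65 without any other library. They were 74 by DESeq2 and 0 with the inner neuron term, where the median was -0.88. For ribosomal proteins the 14 calls were 76 by DESeq2 and 0 with that term, where the median was -0.47. With the same term, the calls against Wt uninjured MG were 31 for biogenesis and 11 for ribosomal proteins. The nucleolar chaperone gene *npm1a*, chosen after its values were seen because all 9 fits kept its call, had 64.4, 112 and 87.9 CPM in *mych*-/- 2 dpi, 323, 404 and 387 CPM in Wt 2 dpi and 20.9, 19.9 and 17.01 CPM in Wt uninjured libraries, and was lower than in Wt 2 dpi MG at -2.07 (95% interval -2.56 to -1.59, adjusted p 0.00356 by edgeR).

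In other lists of the growth machinery, the share of called genes ran from well above the background to near or under it. Of 70 tested translation factors 41 rose and 4 fell (64.3%), and of 34 aminoacyl-tRNA synthetases 21 rose and 0 fell (61.8%), against 54 and 5 and against 26 and 0 in Wt 2 dpi MG. Between the injured groups 1 translation factor was called higher and 8 lower (12.9%), and 5 synthetases lower (14.7%), beside 1.69% of all genes. These lower calls were 0 to 28 and 0 to 11 with 1 library left out. *eef2b*, elongation factor 2, had 2829.5, 3784 and 2592 CPM in *mych*-/- 2 dpi, 5147, 6335 and 6191 CPM in Wt 2 dpi and 693, 897 and 896 CPM in Wt uninjured libraries. The rise was 1.89 ± 0.24 (SE, adjusted p 1.64e-04 by edgeR). *KARS1*, the lysine enzyme, had 193, 221 and 198 CPM in *mych*-/- 2 dpi, 366, 451 and 464 CPM in Wt 2 dpi and 95.4, 97.2 and 102 CPM in Wt uninjured libraries. It was higher by 1.06 ± 0.17 (SE, adjusted p 8.81e-04 by edgeR). Against Wt 2 dpi MG it was lower, at -1.06 (95% interval -1.44 to -0.69, adjusted p 0.0190 by edgeR), kept in 5 of the 9 fits (adjusted p 0.0167 to 0.150 by edgeR) and lost without each of the 4 deciding libraries. Of 33 tested subunits and factors of RNA polymerases I and III, 7 rose and 1 fell (24.2%, near the background), against 21 and 1 in Wt 2 dpi MG. Changes against Wt uninjured MG were positive in 26 of the 33 genes (median 0.50), beside 10201 of all 20484 genes tested. The summed level of that list, 635, 641.8 and 648 CPM in *mych*-/- 2 dpi libraries, overlapped that of Wt uninjured libraries, 627.9, 744.4 and 598.9 CPM, and lay below that of Wt 2 dpi libraries, 893.8, 929.8 and 927.8 CPM. The sum includes *MAF1* (ENSDARG00000036489), which was called lower, with 62.4, 45.7 and 45.6 CPM in *mych*-/- 2 dpi and 96.2, 211 and 124 CPM in Wt uninjured libraries. *POLR1A*, the largest subunit of the enzyme that makes ribosomal RNA, had 48.2, 42.7 and 50.9 CPM in *mych*-/- 2 dpi, 85.0, 92.9 and 77.2 CPM in Wt 2 dpi and 35.6, 39.3 and 25.2 CPM in Wt uninjured libraries, and was not called against Wt uninjured MG at 0.50 ± 0.20 (SE, adjusted p 0.0841 by edgeR).

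Mitochondrial ribosomal proteins had the lowest share called in the mutants among the lists of protein synthesis. Of 75 tested genes 7 rose and 1 fell (10.7%, under the background of 25.8%), with a median of 0.29, while 61 rose and 0 fell in Wt 2 dpi MG, with a median of 1.08. The 8 calls were 4, 2 and 4 without *mych*-/- replicates 1, 2 and 3, 3, 3 and 4 without Wt uninjured replicates 1, 2 and 3, and 6 or 7 without a Wt 2 dpi library. Their summed level was 1117, 1381 and 1246 CPM in *mych*-/- 2 dpi, 1701, 1994 and 2343 CPM in Wt 2 dpi and 1105, 1027 and 940.9 CPM in Wt uninjured libraries. Changes against Wt uninjured MG were positive in 62 of 75 genes, beside 10201 of all 20484 genes tested. Changes against Wt 2 dpi MG were negative in 74 of 75 genes, with a median of -0.68 (-0.79 to -0.59 with 1 library left out). There 3 genes were called, all lower (4%, beside 1.33% of all genes lower). These 3 calls were 0 without *mych*-/- replicate 1 or 3 or Wt 2 dpi replicate 2, 5 without *mych*-/- replicate 2, 8 without Wt 2 dpi replicate 1, 1 without any other library, 1 when scaled by library size alone and 21 by DESeq2. With the inner neuron term 0 genes were called lower than in Wt 2 dpi MG, and 0 rose in either injured group against Wt uninjured MG, with medians of 0.10 in mutants and 0.67 in Wt 2 dpi MG. *MRPL12*, a large subunit protein, rose to 29.3, 39.8 and 36.8 CPM in *mych*-/- 2 dpi libraries, against 14.5, 13.5 and 17.4 CPM in Wt uninjured libraries. The change was 1.22 ± 0.21 (SE, adjusted p 0.00138 by edgeR). *mrpl36*, another, was lower than in both Wt groups, at 5.27, 6.51 and 4.85 CPM in *mych*-/- 2 dpi, 20.7, 30.7 and 23.9 CPM in Wt 2 dpi and 12.03, 12.5 and 7.90 CPM in Wt uninjured libraries. Its change against Wt uninjured MG was -0.96 ± 0.28 (SE, adjusted p 0.0235 by edgeR), kept in 5 of the 9 fits (adjusted p 0.0150 to 0.0955 by edgeR) and lost without *mych*-/- replicate 1 or 3 or Wt uninjured replicate 1 or 2. Against Wt 2 dpi MG it was -2.18 (95% interval -2.80 to -1.56, adjusted p 0.0102 by edgeR), kept in 6 of the 9 fits (adjusted p 0.00911 to 0.0761 by edgeR) and lost without *mych*-/- replicate 1 or 3 or Wt 2 dpi replicate 2.

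Of 33 tested enzymes of nucleotide synthesis and one-carbon metabolism, 22 rose and 2 fell (72.7%, median 1.29). Against Wt 2 dpi MG 8 were called lower (24.2%, beside 1.33% of all genes), with a median of -0.73. These 8 calls were 0 to 13 with 1 library left out, 17 by DESeq2 and 0 with the inner neuron term. *CAD*, which carries the first steps of pyrimidine synthesis, had 206, 267 and 236 CPM in *mych*-/- 2 dpi, 524, 617 and 511 CPM in Wt 2 dpi and 98.6, 102 and 90.6 CPM in Wt uninjured libraries. The groups did not overlap, with the mutants between the others. Its log2 fold change was 1.29 ± 0.18 (SE, adjusted p 3.32e-04 by edgeR) against Wt uninjured and -1.22 (95% interval -1.61 to -0.83, adjusted p 0.0140 by edgeR) against Wt 2 dpi MG, the second kept in 6 of the 9 fits (adjusted p 0.0155 to 0.126 by edgeR) and lost without *mych*-/- replicate 1 or 3 or Wt 2 dpi replicate 2. *TYMS*, which makes thymidylate for DNA, had 50.9, 86.4 and 48.4 CPM in *mych*-/- 2 dpi, 101, 166 and 159.9 CPM in Wt 2 dpi and 0.941, 0.809 and 0.447 CPM in Wt uninjured libraries. It rose by 6.41 ± 0.39 (SE, adjusted p 8.88e-07 by edgeR). *IMPDH1* (ENSDARG00000042336), an inosine monophosphate dehydrogenase that mammalian photoreceptors rely on, fell to 137, 121 and 149 CPM in *mych*-/- 2 dpi libraries, against 388, 644 and 336 CPM in Wt uninjured libraries. Of 33 tested glycolysis genes 7 rose and 6 fell (39.4%), 13 calls that became 7 without *mych*-/- replicate 1 or 2 and 8 without Wt uninjured replicate 2 or 3. The 7 risers were 4 and 3 without *mych*-/- replicates 1 and 2, and the 6 falls were 3 without *mych*-/- replicate 1 or Wt uninjured replicate 2 or 3. *HK2*, the hexokinase of proliferating cells, had 28.1, 30.8 and 26.97 CPM in *mych*-/- 2 dpi, 52.94, 68.3 and 53.8 CPM in Wt 2 dpi and 0.757, 2.38 and 2.04 CPM in Wt uninjured libraries. The rise was 4.06 ± 0.37 (SE, adjusted p 1.54e-05 by edgeR). Against Wt 2 dpi MG *HK2* stood at -1.03 (95% interval -1.73 to -0.33, adjusted p 0.115 by edgeR), unlike most of its list. There 25 of the 33 genes had a positive change, beside 10653 of all 20484, with a median of 0.41. Of the 33, 0 were called there, and 8 were higher and 2 lower at an unadjusted p under 0.05. In Wt 2 dpi against Wt uninjured MG 5 rose and 12 fell. *PFKM* (ENSDARG00000060797), a phosphofructokinase, was lower, at -1.85 ± 0.33 (SE, adjusted p 0.00180 by edgeR). Of 26 tested cholesterol synthesis genes 1 rose and 8 fell (34.6%, median -0.79). Within 2-fold of Wt 2 dpi MG lay 12 of them (46.2%, beside 31.3% of all genes). *insig1*, a sterol sensor that is itself switched on when sterols run low, had 14.9, 25.1 and 12.9 CPM in *mych*-/- 2 dpi, 15.17, 19.4 and 21.6 CPM in Wt 2 dpi and 67.0, 56.9 and 92.6 CPM in Wt uninjured libraries and was lower, at -2.03 ± 0.29 (SE, adjusted p 3.86e-04 by edgeR).

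Genes of mature MG function moved in both directions. Of 44 tested MG homeostasis genes 10 rose and 7 fell (38.6%). Within 2-fold of Wt 2 dpi MG lay 17 of them (also 38.6%, beside 31.3% of all genes). The 7 falls were 4 without *mych*-/- replicate 3 or Wt uninjured replicate 2 and 5 to 9 without another library. The median of -0.31 was -0.60 without *mych*-/- replicate 2 and 0.12 without Wt uninjured replicate 3, where its sign turned. *GLUL*, glutamine synthetase, ENSDARG00000099776, had 3300.0, 5533 and 1825 CPM in *mych*-/- 2 dpi, 2456, 3502 and 2239.7 CPM in Wt 2 dpi and 3144, 4859.8 and 6360.3 CPM in Wt uninjured libraries and was not called. Its copy ENSDARG00000100003 rose, by 1.3 ± 0.31 (SE, adjusted p 0.00837 by edgeR). *rlbp1a*, the retinoid carrier of MG, had 808, 1465 and 417 CPM in *mych*-/- 2 dpi, 708, 878 and 985 CPM in Wt 2 dpi and 864, 909 and 1362 CPM in Wt uninjured libraries. The mutant libraries spanned the uninjured range on both sides, replicate 2 being the highest and replicate 3 the lowest, and the gene was not called. *GFAP*, the glial filament gene whose promoter marks the sorted cells, was chosen after its values were seen and rose by 2.07 ± 0.34 (SE, adjusted p 8.85e-04 by edgeR), with 612, 1175 and 576 CPM in *mych*-/- 2 dpi, 578, 767 and 673 CPM in Wt 2 dpi and 119, 185 and 259 CPM in Wt uninjured libraries. *ca2*, a carbonic anhydrase, fell to 9.41, 11.5 and 11.8 CPM in *mych*-/- 2 dpi libraries, against 35.6, 30.5 and 43.6 CPM in Wt uninjured libraries.

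Of 37 tested MHC and interferon response genes 14 rose and 1 fell (40.5%, median 1.62). *b2m*, the light chain of MHC class I, had 45.8, 60.6 and 43.7 CPM in *mych*-/- 2 dpi, 45.7, 63.7 and 73.4 CPM in Wt 2 dpi and 11.2, 11.4 and 13.3 CPM in Wt uninjured libraries. It rose by 2.06 ± 0.23 (SE, adjusted p 6.55e-05 by edgeR) with an interval against Wt 2 dpi MG of -0.76 to 0.19. *PSMB8*, an immunoproteasome subunit, rose by 3.70 ± 0.45 (SE, adjusted p 1.34e-04 by edgeR). *mhc1uba*, a class I heavy chain gene, had 0 counts in every *mych*-/- and every Wt uninjured library and 51.2, 37.2 and 26.1 CPM in Wt 2 dpi libraries. Class I genes differ in sequence and copy number between fish, and for this gene a response that is missing and a copy that is missing cannot be told apart. Of 26 tested dissociation and heat shock genes 8 rose and 3 fell (42.3%), 11 calls that became 6, with 0 lower, without *mych*-/- replicate 1 or 2. The 3 lower were 1 without Wt uninjured replicate 3 and 5 by DESeq2. *hsp70.3* stood at 4239, 5362 and 6192 CPM in *mych*-/- 2 dpi, 2438, 2791 and 4632 CPM in Wt 2 dpi and 6526, 6711 and 15905 CPM in Wt uninjured libraries and was not called at -0.88 ± 0.38 (SE, adjusted p 0.11 by edgeR), with every mutant library below every uninjured one and Wt uninjured replicate 3 far above the rest. *HMOX1*, heme oxygenase, rose by 5.72 ± 0.76 (SE, adjusted p 2.66e-04 by edgeR).

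Markers of other retinal cells moved with the groups. Rod markers summed to 1966 to 3763 CPM in *mych*-/- 2 dpi, 1703 to 4209 CPM in Wt 2 dpi and 17003 to 32988 CPM in Wt uninjured libraries, with 18 of 21 tested genes lower than in Wt uninjured MG and 0 higher (85.7%, beside 9.53% of all genes lower). Cone markers summed to 20306 to 29065 CPM, 15884 to 29017 CPM and 52732 to 76553 CPM in the same groups, with 16 of 21 lower and 0 higher (76.2%). Photoreceptor transcripts made up much more of the uninjured libraries than of either injured group, and the injured groups overlapped. No defining rod, cone or amacrine marker was at or under 3 counts in every library of a group. Amacrine markers summed to 1252 to 2551 CPM in *mych*-/- 2 dpi, 750 to 1794 CPM in Wt 2 dpi and 3942 to 4781 CPM in Wt uninjured libraries, and bipolar markers to 639.2 to 825 CPM, 347.2 to 511.8 CPM and 1083 to 1965 CPM. The bipolar sums of the mutants lay between those of the Wt groups without overlap. In mutants 8 of 13 bipolar (61.5%), 4 of 11 amacrine (36.4%) and 1 of 14 ganglion cell markers (7.14%) were lower than in Wt uninjured MG. The ganglion cell share was under the 9.53% of all genes that were lower. In Wt 2 dpi MG 13, 9 and 8 of these markers were lower, beside 19.8% of all genes. Between the injured groups the medians of these lists were 0.77, 0.75 and 0.76, with 0 calls by edgeR, 1, 2 and 2 higher by DESeq2, and 9, 4 and 8 higher at an unadjusted p under 0.05. The mean log2 level of inner neuron markers, centred over the libraries, was 0.07, -0.44 and 0.33 in *mych*-/- 2 dpi, -0.31, -1.51 and -0.94 in Wt 2 dpi and 1.07, 0.71 and 1.04 in Wt uninjured libraries. With this level as a term of the fit, edgeR called 1479 genes in *mych*-/- 2 dpi against Wt uninjured and 5 against Wt 2 dpi MG. Its values do not overlap between the mutant and uninjured libraries, so its part and that of the groups cannot be told apart. Microglia and macrophage markers summed to 65.46 to 103.8 CPM in *mych*-/- 2 dpi, 73.07 to 101.6 CPM in Wt 2 dpi and 28.18 to 80.34 CPM in Wt uninjured libraries, with 7 of 15 higher and 1 lower (53.3% called). Endothelial markers summed to 115.4 to 176.4 CPM, 114.2 to 158.9 CPM and 58.73 to 77.23 CPM in the same groups, with 2 of 11 higher and 1 lower (27.3%, near the background of 25.8%). Among the remaining lists, 2 of 7 tested pericyte markers were higher and 1 lower (42.9% called). For 3 horizontal cell and 8 oligodendrocyte markers, 0 were higher and 2 and 1 were lower (66.7% and 12.5%). For 2 neutrophil, 9 pigment cell and 3 erythrocyte markers, 0 were called. MG markers were present in every library, at 14125 to 37233 CPM in *mych*-/- 2 dpi, 16209 to 25568 CPM in Wt 2 dpi and 10573 to 17556 CPM in Wt uninjured libraries, and *mych*-/- replicate 2 held the highest sum.

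**Figure D4:**
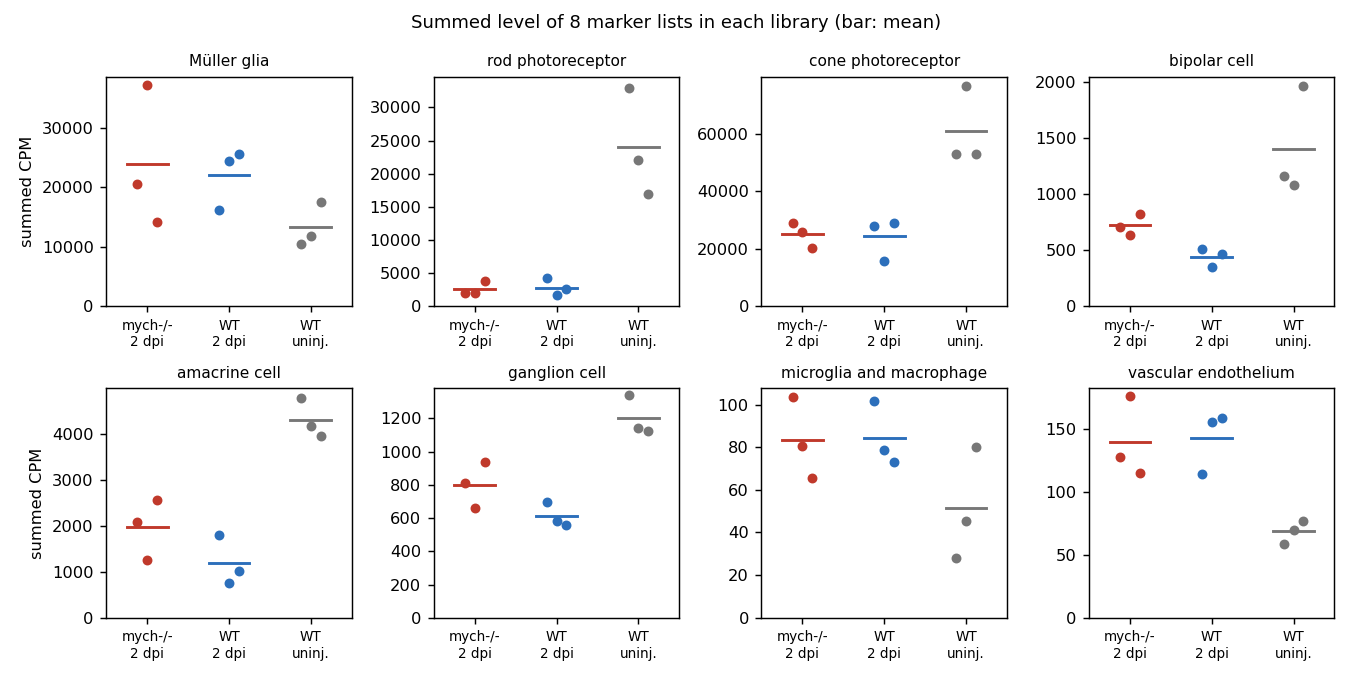
Summed CPM of the members of 8 marker lists in each *mych*-/- 2 dpi (red), Wt 2 dpi (blue) and Wt uninjured (grey) library, with a bar at the mean of 3 libraries. Rod and cone sums are higher in every grey than in every red or blue point, and bipolar sums of the mutants lie between those of the other groups.

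Among abundant called genes with a symbol and no overlap of libraries, the 10 with the highest fitted rises were all at the detection floor in uninjured MG. Such fits depend on the prior count, so only bounds are given, and no order of size is read among these genes or against genes above the floor such as *MMP9*. Besides *clcf1* they were *kng1*, *ITGA2*, *RTKN2*, *si:ch211-153b23.5*, *NIBAN1*, *HPN*, *gtse1*, *cart4* and *haspin*, each at 3 counts or fewer in every uninjured library. *kng1*, the precursor of kinins, had 64.3, 116 and 79.4 CPM in *mych*-/- 2 dpi and 44.6, 70.7 and 74.4 CPM in Wt 2 dpi libraries and was at least 1212-fold higher in mutants than in Wt uninjured MG. *ITGA2*, the alpha subunit of a collagen receptor, had 24.2, 18.5 and 31.3 CPM in *mych*-/- 2 dpi and 15.0, 14.6 and 13.6 CPM in Wt 2 dpi libraries, a rise of at least 345-fold, and all mutant libraries were above the injured Wt libraries. *RTKN2*, a GTPase effector, and *gtse1*, a microtubule protein of dividing cells, rose at least 314-fold and 203-fold, and both stood lower in every mutant library than in every Wt 2 dpi library. The *haspin* gene, which encodes a mitotic histone kinase, rose at least 170.2-fold, and the other 4 at least 170.2- to 278-fold.

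The largest falls included photoreceptor genes and genes at under 1 CPM in every mutant library. *GUCA1A*, *cplx4c* and *GRK1* are photoreceptor genes of phototransduction and transmitter release. *GRK1*, a photoreceptor kinase, had 18.6, 23.2 and 45.8 CPM in *mych*-/- 2 dpi, 61.1, 18.0 and 27.7 CPM in Wt 2 dpi and 584, 429.8 and 283 CPM in Wt uninjured libraries. The change was -3.89 ± 0.51 (SE, adjusted p 2.32e-04 by edgeR), and the injured groups overlapped in *GRK1*. They did not overlap in *GUCA1A*, which had 1.86, 30.2 and 8.71 CPM in *mych*-/- 2 dpi and 100.3, 71.5 and 32.6 CPM in Wt 2 dpi libraries. Its Wt uninjured libraries had 308, 299 and 332 CPM. Among the rest, *si:dkey-240n22.6* had 0.602, 1.43 and 0.362 CPM in *mych*-/- 2 dpi, 0.328, 0.979 and 1.31 CPM in Wt 2 dpi and 13.8, 16.7 and 12.4 CPM in Wt uninjured libraries. The other 5 were at under 1 CPM in every mutant library and above all of them in every Wt library. *SMC1A* ENSDARG00000055754, 1 of the IDs with the symbol of this cohesin subunit, had 0 counts in every *mych*-/- library, 5.22, 1.22 and 5.15 CPM in Wt 2 dpi and 14.1, 18.2 and 11.9 CPM in Wt uninjured libraries, at least 294-fold lower than in uninjured MG. The ID *loc101882772* had 0, 0.541 and 0.0158 CPM in *mych*-/- 2 dpi, 9.58, 13.0 and 13.8 CPM in Wt 2 dpi and 72.6, 57.9 and 55.3 CPM in Wt uninjured libraries. The change was -8.27 ± 0.91 (SE, adjusted p 7.22e-05 by edgeR) from uninjured MG. *PKP1*, a desmosome protein, had 0, 0 and 0.284 CPM in *mych*-/- 2 dpi, 7.77, 2.71 and 6.21 CPM in Wt 2 dpi and 14.9, 20.01 and 6.67 CPM in Wt uninjured libraries. The change was -7.19 ± 1.15 (SE, adjusted p 9.09e-04 by edgeR). Of the 9 fits with 1 library left out, 9 called *SMC1A* against Wt 2 dpi MG. The call of *loc101882772* was kept in 7 of the 9 fits (adjusted p 1.17e-05 to 0.0621 by edgeR) and lost without *mych*-/- replicate 1 or Wt 2 dpi replicate 2, and that of *PKP1* was kept in 4 of the 9 fits (adjusted p 0.00604 to 0.167 by edgeR) and lost without these, Wt 2 dpi replicate 3 or Wt uninjured replicate 1 or 2. *si:ch211-133d24.25* and *si:dkey-241l7.10* showed the same order of groups, with changes of -6.22 ± 0.67 (SE, adjusted p 5.60e-05 by edgeR) and -5.36 ± 0.76 (SE, adjusted p 3.81e-04 by edgeR) from uninjured MG. The groups came from different fish, and for such genes less transcript cannot be told apart from a variant or missing copy in the mutant line.

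Of 20484 genes tested, 15 were called higher in the mutants than in both Wt groups. The genes of this paragraph were chosen for these calls and for libraries that did not overlap. Their separation and p-values therefore only describe the chosen genes and are no separate support. *NPR3*, the clearance receptor of natriuretic peptides, had 40.7, 17.6 and 14.9 CPM in *mych*-/- 2 dpi, 3.30, 2.82 and 3.17 CPM in Wt 2 dpi and 2.77, 2.16 and 3.14 CPM in Wt uninjured libraries. The Wt groups overlapped and every mutant library was above both, with log2 fold changes of 3.18 ± 0.41 (SE, adjusted p 1.80e-04 by edgeR) against Wt uninjured and 2.98 (95% interval 2.10 to 3.85, adjusted p 0.0107 by edgeR) against Wt 2 dpi MG, the second kept in 7 of the 9 fits (adjusted p 0.00821 to 0.0640 by edgeR) and lost without *mych*-/- replicate 1 or Wt 2 dpi replicate 2. *actn3b*, an alpha actinin known from fast muscle, had 16.8, 32.7 and 14.4 CPM in *mych*-/- 2 dpi, 1.31, 1.51 and 0.938 CPM in Wt 2 dpi and 3.25, 2.28 and 2.87 CPM in Wt uninjured libraries. Its change was 2.92 ± 0.39 (SE, adjusted p 2.53e-04 by edgeR) against Wt uninjured and 4.08 (95% interval 3.18 to 4.98, adjusted p 0.00237 by edgeR) against Wt 2 dpi MG, and all 9 fits kept the second call. *plxnb2a.2*, a plexin gene, had 16.6, 36.3 and 9.88 CPM in *mych*-/- 2 dpi, 0, 0 and 0.328 CPM in Wt 2 dpi and 3.16, 1.76 and 4.15 CPM in Wt uninjured libraries. It was higher by 2.79 ± 0.90 (SE, adjusted p 0.0409 by edgeR), a call kept in 4 of the 9 fits (adjusted p 0.00519 to 0.206 by edgeR) and lost without *mych*-/- replicate 1 or 2 or any Wt uninjured library.

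A further 3 genes of this kind were chosen after their values were seen, so their separation and p-values are no separate support either. *ERO1A*, an oxidase of protein folding in the endoplasmic reticulum, had 188, 107 and 76.8 CPM in *mych*-/- 2 dpi, 34.4, 52.3 and 45.2 CPM in Wt 2 dpi and 9.98, 9.16 and 11.3 CPM in Wt uninjured libraries. The changes were 3.61 ± 0.32 (SE, adjusted p 1.46e-05 by edgeR) against Wt uninjured and 1.5 (95% interval 0.85 to 2.14, adjusted p 0.0384 by edgeR) against Wt 2 dpi MG. *VEGFA* ENSDARG00000034700, an endothelial growth factor gene, had 38.0, 47.3 and 18.1 CPM in *mych*-/- 2 dpi, 7.90, 11.3 and 11.4 CPM in Wt 2 dpi and 13.2, 12.5 and 17.5 CPM in Wt uninjured libraries. The changes were 1.26 ± 0.33 (SE, adjusted p 0.0156 by edgeR) and 1.75 (95% interval 1.02 to 2.49, adjusted p 0.0353 by edgeR). *ANKRD37* had 33.3, 37.0 and 21.2 CPM in *mych*-/- 2 dpi, 7.29, 10.5 and 10.2 CPM in Wt 2 dpi and 19.95, 15.3 and 13.2 CPM in Wt uninjured libraries. The changes were 0.92 ± 0.28 (SE, adjusted p 0.0306 by edgeR) and 1.70 (95% interval 1.08 to 2.32, adjusted p 0.0203 by edgeR). In all 3 every mutant library was above every Wt library. Against Wt 2 dpi MG the calls of *ERO1A*, *VEGFA* and *ANKRD37* were kept in 5, 6 and 6 of the 9 fits and lost without *mych*-/- replicate 1 or Wt 2 dpi replicate 2 or 3, and for *ERO1A* also without Wt uninjured replicate 1. Against Wt uninjured MG they were kept in 9, 6 and 5, those of *VEGFA* and *ANKRD37* being lost without *mych*-/- replicate 1 or 2 or Wt uninjured replicate 2, and for *ANKRD37* also replicate 3.

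**Figure D5:**
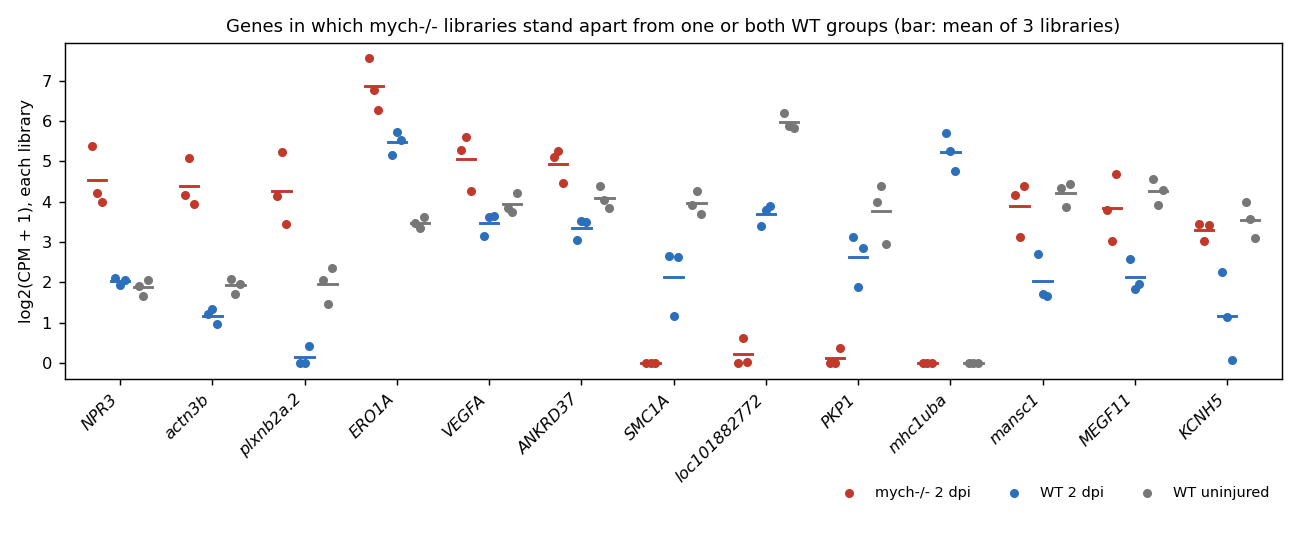
log2(CPM + 1) of 13 genes in each *mych*-/- 2 dpi (red), Wt 2 dpi (blue) and Wt uninjured (grey) library, with a bar at the mean of 3 libraries. In *NPR3*, *actn3b*, *plxnb2a.2*, *ERO1A*, *VEGFA* and *ANKRD37* the red points lie above all others, and *SMC1A* and *mhc1uba* are at 0 in every mutant library.

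Parts of the Wt injury response were not called in the mutants. The genes taken here were called between Wt 2 dpi and Wt uninjured MG, and in mutants were not called and had a log2 fold change under 0.5 in size. A difference from Wt 2 dpi MG is built into this choice. Values against Wt 2 dpi MG below therefore only describe the chosen genes, and their p-values are no separate support. Apart from *mhc1uba*, those with the largest Wt change all fell in Wt MG. *mansc1* had 16.8, 7.74 and 19.8 CPM in *mych*-/- 2 dpi, 5.47, 2.24 and 2.17 CPM in Wt 2 dpi and 19.3, 13.6 and 20.8 CPM in Wt uninjured libraries. The change was -0.28 from uninjured MG. *MEGF11*, a receptor that spaces retinal interneurons in mice, had 12.8, 7.09 and 24.7 CPM in *mych*-/- 2 dpi, 4.96, 2.54 and 2.89 CPM in Wt 2 dpi and 22.7, 14.1 and 18.6 CPM in Wt uninjured libraries. The change was -0.31. Mutant and uninjured libraries overlapped in both, and every mutant library was above every injured Wt library. Against Wt 2 dpi MG they were higher, by 2.17 (95% interval 1.19 to 3.14, adjusted p 0.0404 by edgeR) and 2.10 (95% interval 1.13 to 3.07, adjusted p 0.0419 by edgeR). The *mansc1* call was kept in 2 of the 9 fits (adjusted p 0.0167 to 0.203 by edgeR) and the *MEGF11* call was kept in 2 of the 9 fits (adjusted p 0.0191 to 0.177 by edgeR), in both those without *mych*-/- replicate 2 or Wt 2 dpi replicate 1. The potassium channel gene *KCNH5* (ENSDARG00000069117), *ADAM11* and *FNDC4* (ENSDARG00000043396) had the same order of means, with changes of -0.32, -0.41 and -0.47 against Wt uninjured MG and of 2.40, 1.92 and 1.76 against Wt 2 dpi MG, where 0 of the 3 was called by edgeR, 3 had an unadjusted p under 0.05 and DESeq2 called 2 (higher). The inner retinal neuron marker sums given above follow the same order of groups, and their part in these values was not tested.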

How the data were processed

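Poly(A)-selected RNA of sorted GFP+ MG from 9 libraries was analysed. The deposited counts are whole numbers per Ensembl gene ID as the authors made them. The submitters' processing notes name cutadapt 2.3, FastQC 0.11.8, STAR 2.7.8a, RSEM 1.3.3 and DESeq2, and the zebrafish build GRCz11. Estimated counts of RSEM appear rounded, and strand use is not given in the sources used here. An expression cutoff of the study was not applied.

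Genes passing filterByExpr were fitted in edgeR 4.0.16 (R 4.3.3, limma 3.58.1) with TMM scaling, robust quasi-likelihood dispersion and 1 model of the 3 groups of 3 libraries, with Benjamini-Hochberg adjustment over all genes. The steps were tested on simulated data. The common biological coefficient of variation was 62.2%, which together with 3 libraries a group sets the precision. Levels of genes at 3 counts or fewer in every library of a group are given as bounds from that floor, which cover counting error only.

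Alternatives were DESeq2 (1.42.0), other scalings, no filter, non-robust dispersion, a replicate block, an inner neuron marker term, only the 6 libraries compared, a threshold of 1, and each library left out. Members, lists and rules were chosen with earlier results of these data known. Genes named were the first 3 members of each list, its largest called changes, the Myc family, the 10 largest rises and falls with at least 10 CPM in the higher group, genes called alike against both Wt groups, and genes called with Wt injury only; others are marked as chosen later. Some genes and 1 list reached by these rules are not reported here.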

Additional observations from a re-analysis of the deposited data

How the results depend on the processing

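Between *mych*-/- 2 dpi and Wt uninjured MG, 4986 to 6560 genes were called under other scalings, filters and tools, and 3801 to 5336 with 1 library left out. With the inner neuron marker term, 1479 genes were called there and 536 between Wt 2 dpi and Wt uninjured MG. Between the injured groups, where 347 genes were called, the count was 1795 by DESeq2, 221 scaled by upper quartiles, 214 scaled by library size alone, 219 with only the 6 libraries compared, 5 with the inner neuron marker term and 8 to 1026 with 1 library left out. Deviations of same-numbered libraries correlated at -0.075 to 0.09, and 2 of 9 libraries correlated best with one of their own number in another group. No pairing by replicate number was seen, but with 3 libraries a group this check is weak and cannot show that there was none. With the replicate block, 4963 genes were called against Wt uninjured MG, 4710 of them also called without it, 111 were called between the injured groups, and 5 mitochondrial ribosomal protein genes were called against Wt uninjured MG.

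With the inner neuron marker term, the lists held these numbers of called genes against Wt uninjured MG. DNA replication held 46, mitosis 56, cyclins, Cdks, inhibitors and E2f 15, gp130 signalling 9 and reprogramming factors 7. The numbers were 2 for Egf and Fgf, 3 for AP-1, 9 for Notch, 6 for progenitor factors, 4 for Tgf-beta, 4 for Wnt and 5 for proteases. They were 11 for cytosolic ribosomal proteins, 31 for ribosome biogenesis, 3 for RNA polymerases I and III, 12 for translation factors, 9 for aminoacyl-tRNA synthetases, 1 for mitochondrial ribosomal proteins and 12 for nucleotide synthesis. They were 2 for glycolysis, 4 for cholesterol synthesis, 4 for MG homeostasis, 7 for MHC genes, 0 for Max partners and 2 for stress genes. DESeq2 called 10 Egf and Fgf genes. A fold threshold of 1 left 28 translation factors, 3 mitochondrial ribosomal proteins, 4 glycolysis genes and 7 stress genes. With 1 library left out, called genes numbered 3 to 7 for Tgf-beta, 2 to 7 for mitochondrial ribosomal proteins, 7 to 12 for glycolysis, 1 to 2 for Max partners and 6 to 12 for stress genes. Of 190 genes covered by the naming rule, 148 were called, 54 of these lost the call under at least 1 alternative, 46 of them only with a library left out, the marker term or the block, and 0 changed direction. The cause of these changes was not tested.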
